A study of Mus musculus with 9 samples.

Results

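The 3 genes of heterochromatin protein 1 (HP1), Cbx1, Cbx3 and Cbx5, and 5 genes of proteins that work with HP1 on silent chromatin, Pogz, Adnp, Trim28, Atrx and Daxx, were followed during the first 48 h of spermatogonial stem cell differentiation in vitro. They were chosen by name, with earlier results of these data known, and make up 8 of the 46078 genes in the count files. The cells were EGFP-SSCs, a wild-type mouse line of spermatogonial stem cells (SSCs), the dividing germ cells that sustain sperm production. At 0 h the line was in its normal culture on mitomycin C-exposed mouse embryonic fibroblasts with GDNF, basic fibroblast growth factor and epidermal growth factor. At 24 h and 48 h it had been cultured with testicular somatic cells from busulfan-exposed mice of 3 to 7 days after birth, mixed at 1 to 1, in a medium with retinoic acid, BMP-4/7, activin A, testosterone and FSH, and EGFP-positive cells had been sorted out by flow cytometry. Poly-A RNA of 3 biological replicates at each time point was sequenced, which gave 9 libraries, all from this 1 line.

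HP1 proteins bind the methylated lysine 9 of histone H3 through a chromodomain and hold other proteins through a second, chromoshadow domain, and so compact pericentromeric and silenced chromatin. In germ cells this chromatin helps to keep transposable elements silent and to hold sister centromeres together. HP1 beta, HP1 gamma and HP1 alpha are encoded by Cbx1, Cbx3 and Cbx5, of which HP1 gamma is also found over transcribed genes. TRIM28 (KAP1) brings HP1 and the methyltransferase SETDB1 to sites bound by KRAB zinc finger proteins, POGZ releases HP1 alpha from mitotic chromosome arms, ADNP joins HP1 and the remodeller CHD4, and ATRX with the chaperone DAXX deposits histone H3.3 at repeats.

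The libraries held 16825251 to 22201892 counts each, and all 8 genes passed the filter on low counts in every comparison. Germ cell transcripts were present throughout: Ddx4, a germ cell RNA helicase, was measured at 215 to 455 CPM (counts scaled to a common library size) at 0 h, 336 to 382 CPM at 24 h and 372 to 389 CPM at 48 h. Of 9 germ cell genes, 0 were called higher and 2, 3 and 1 lower at 24 h against 0 h, 48 h against 0 h and 48 h against 24 h (edgeR adjusted p of up to 0.05), among them Nanos3, which was at 15.2, 8.75 and 7.07 CPM. Of all genes tested, 25.5%, 31.6% and 21.3% were called in these comparisons, and 14.2%, 18.5% and 12.7% were called lower. Markers of somatic cells moved with time. The summed level of 9 fibroblast and stromal genes was 760 to 895 CPM at 0 h, 2755 to 3186 CPM at 24 h and 3799 to 4067 CPM at 48 h, and that of 6 myoid genes was 13.7 to 15.8, 149 to 207 and 267 to 318 CPM. The sum of 10 Sertoli cell genes was 19.6 to 20.7, 59.5 to 92.8 and 72.3 to 75.4 CPM, that of 7 Leydig cell genes 4.63 to 6.97, 29.4 to 44.7 and 29.6 to 36.5 CPM. The 5 endothelial genes summed to 43.2 to 47.8 CPM at 0 h and at most 18.9 CPM later, and the 6 macrophage genes to 15.7 to 18.0 and at most 10.2 CPM. Single genes of these lists went the other way: Cd68 made up most of the macrophage sum (15.6 CPM at 0 h), while Csf1r was called higher at 24 h against 0 h (0.293 to 1.09 CPM), Lyz2 at 48 h against 24 h (0.439 to 1.49 CPM), and the endothelial gene Tek at 24 h and 48 h against 0 h (1.42 to 3.51 and 4.08 CPM). Of the Sertoli cell genes, Sox9 (11.7 to 6.68 CPM) and Rhox5 (2.23 to 0.370 CPM) were called lower at 24 h against 0 h. Amh was called lower at 48 h against 24 h (5.81 to 0.820 CPM). The stromal gene Thy1 was called lower at 24 h and 48 h against 0 h (47.7 to 16.9 and 23.8 CPM), and Pdgfra at 48 h against 24 h (44.9 to 36.0 CPM). Fshr, Hsd3b1, Insl3, Emcn and C1qa had no count in any 0 h library. The part of these cells in the values of the 8 genes was not tested, and in bulk RNA fewer cells of a type cannot be told apart from less RNA per cell. The 0 h libraries also differed among themselves along base composition: 150 long transcripts of low GC content (at least 8000 bases, at most 42% GC) lay at a median of 0.50 above their 9-library mean on the log2 scale in 0 h replicate 1 and 0.72 below it in 0 h replicate 3. When library size alone replaced TMM, the median log2 fold change of the whole table went up by 0.11 at both 24 h and 48 h against 0 h. The higher genes then made up 57.1% in place of 44.5% of the genes called at 24 h and 52.8% in place of 41.2% at 48 h.

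Per length of exon, taken as the union of exons, the 8 genes lay far apart. In that order 4 of them, Trim28, Cbx3, Adnp and Atrx, kept their place at all 3 times. Levels are in FPKM, counts divided by exon length and by library size, with the SD over 3 libraries. Trim28 was the most abundant, with 178 ± 31.4 FPKM before co-culture, 192 ± 8.85 FPKM after 24 h and 187 ± 10.4 FPKM after 48 h. Cbx3 followed at 51.8 ± 18.8, 47.1 ± 5.55 and 51.6 ± 1.67 FPKM. At 0 h Cbx5 (28.0 ± 6.85 FPKM) and Pogz (27.8 ± 2.25 FPKM) overlapped between libraries. At 24 h Pogz stood above Cbx5 in all 3 libraries (32.4 ± 3.98 against 24.6 ± 1.52 FPKM), and at 48 h Pogz reached 40.0 ± 2.63 FPKM while Cbx5 was at 18.7 ± 0.361 FPKM and overlapped with Cbx1 at 19.9 ± 1.69 FPKM. Daxx lay at 16.7 ± 1.77, 16.4 ± 0.153 and 16.1 ± 1.45 FPKM, next to Cbx1 at 16.2 ± 1.90 FPKM at 0 h, where those 2 genes overlapped. Adnp and Atrx were the lowest, at 2.61 ± 0.227 and 2.45 ± 2.67 FPKM at 0 h, and their libraries overlapped at 0 h and 48 h. The order depends on the length used. With the longest transcript as length, Trim28 and Cbx3 kept the highest means, but Atrx had a higher mean than Adnp at all 3 times. The means were 5.19, 3.14 and 6.03 FPKM for Atrx and 2.83, 3.02 and 4.63 FPKM for Adnp. Pogz then lay above Cbx5 at 0 h already, at 40.1 ± 3.24 against 28.7 ± 7.01 FPKM.

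The Adnp level per length may be an undercount. In the annotation a second protein-coding gene on the same strand, Gm20716, covers 82.1% of the exon bases of Adnp, and a counter that drops reads in 2 genes leaves Adnp only the other 957 bases (the counting setting is not given in the sources used here). Gm20716 held 0 to 3 counts in each library, whereas Adnp held 250 to 602. Divided by the 957 bases alone, Adnp would lie at 14.6 ± 1.27 FPKM at 0 h, 15.6 ± 2.35 at 24 h and 23.9 ± 3.65 at 48 h, near Cbx1 and Daxx. The fold changes of Adnp are unaffected by this length.

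**Figure D1:**
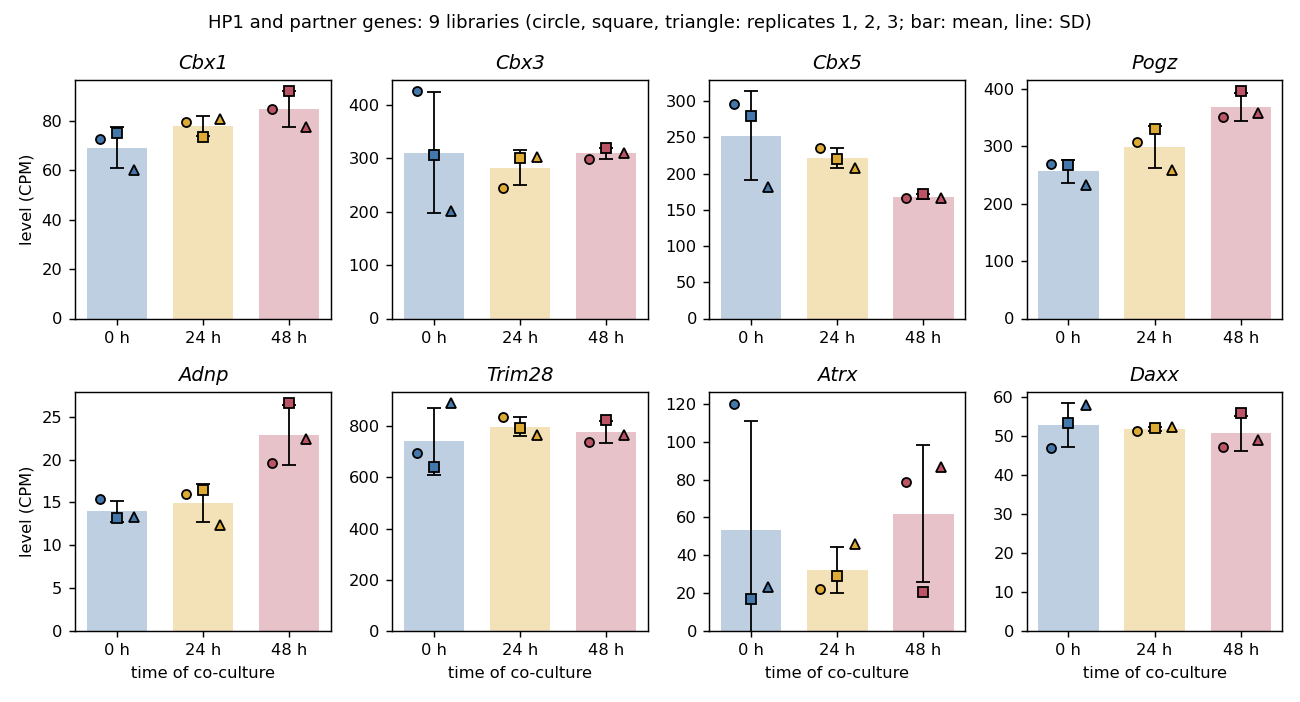
Level of each of the 8 genes in CPM (vertical axes, linear, from 0) against the time of co-culture; markers are the 3 libraries of a time point, bars their mean and lines the SD, cut off at 0 for Atrx at 0 h. Pogz and Adnp are highest in the 48 h libraries, Cbx5 is lowest there, and Atrx runs from 16.7 to 120 CPM within the 0 h group.

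Over the first day none of the 8 genes passed the test, and over the second day 3 did. The 2 days were not tested with like precision. For each of the 8 genes the SE of the log2 fold change was larger on the first day. It ran from 0.11 (Daxx) to 0.73 (Atrx) there and from 0.06 (Cbx5) to 0.46 (Atrx) on the second day. A change of the same size was thus less likely to be called on the first day, and the difference between the days was not tested. With edgeR's quasi-likelihood test and Benjamini-Hochberg adjustment over all genes, a gene was called at an adjusted p of up to 0.05. At 24 h against 0 h 0 of the 8 genes were called, where 25.5% of 17592 genes tested were called (11.4% higher, 14.2% lower); none had an unadjusted p under 0.05, and DESeq2 called 0 as well. At 48 h against 0 h 2 of 8 were called, Pogz and Adnp, both higher (31.6% of 17755 genes were called, 13.0% higher and 18.5% lower). At 48 h against 24 h 3 of 8 were called, Pogz and Adnp higher and Cbx5 lower (21.3% of 17499 genes, 8.61% higher and 12.7% lower). The libraries of the compared groups did not overlap for 0, 4 and 3 of the 8 genes, against 43.1%, 47.7% and 38.5% of all genes tested. The median log2 fold change of the 8 genes was 0.03, 0.14 and 0.13, beside 0.01, 0.02 and -0.00 for all genes. The 2 calls at 48 h against 0 h are near the background share. The 3 calls of the second day became 1 when all 9 libraries were fitted together, a fit in which the whole table had fewer calls as well. The comparisons with 0 h share the same 0 h libraries.

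**Figure D2:**
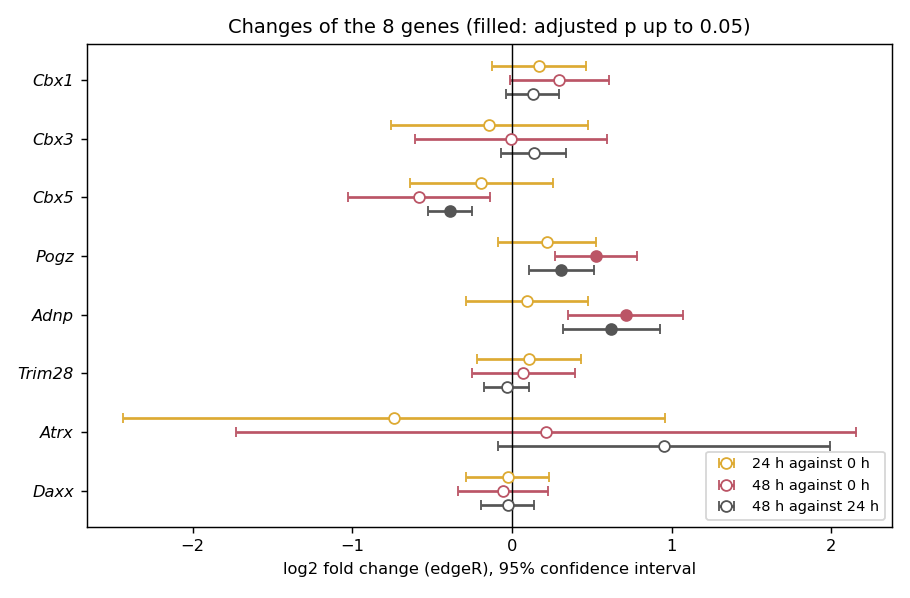
Log2 fold change of each gene (horizontal axis) in the 3 comparisons, with the 95% confidence interval of edgeR's fit; filled points have an adjusted p of up to 0.05. Filled points are seen for Pogz and Adnp to the right of 0 and for Cbx5 to the left, and the intervals of Atrx are the widest.

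Of the 3 HP1 genes, Cbx5 fell during the second day, while Cbx1 and Cbx3 did not pass the test in any comparison. Cbx5 (HP1 alpha, ENSMUSG00000009575, chr15:103191544-103239816 of GRCm38, minus strand) was measured at 296, 279 and 182 CPM in 0 h replicates 1 to 3, at 236, 221 and 208 CPM at 24 h, and at 167, 172 and 166 CPM at 48 h. All 48 h libraries lay below all 24 h and all 0 h libraries, and 0 h replicate 3 lay below every 24 h library. The log2 fold change from 24 h to 48 h was -0.39 (SE 0.06, edgeR adjusted p = 0.00275, lower in all 3 libraries). Fitted with all 9 libraries together, which share 1 estimate of the spread, the same change was -0.38 with an adjusted p of 0.223. From 0 h to 48 h the change was -0.58 (SE 0.19, 95% confidence interval -1.03 to -0.14), just outside the threshold in edgeR (adjusted p = 0.0532) and inside it in DESeq2 (adjusted p = 0.0274). Without 0 h replicate 3 the change was -0.75 (edgeR adjusted p = 0.000891) and that of 24 h against 0 h, -0.19 (adjusted p = 0.533) with all libraries, became -0.36 (adjusted p = 0.0258). Without 0 h replicate 1 the change shrank to -0.44 at 48 h and to -0.05 at 24 h against 0 h. Of the 6 fits that left out 1 library, 1 passed the test in each of these comparisons. With offsets for GC content and length, 48 h against 0 h gave -0.90 (adjusted p = 0.000337). Of 15 replication and mitosis genes, 3 were called lower and 2 higher (Ccnb1 and Plk1) on the second day, where 21.3% of all genes were called, and 5 lower and 1 higher at 48 h against 0 h, where 31.6% were. Their summed level was 4113 to 4383 CPM at 0 h, 3882 to 3958 CPM at 24 h and 3686 to 3879 CPM at 48 h. Its part in the Cbx5 value was not tested.

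Cbx1 (HP1 beta, ENSMUSG00000018666, chr11:96789127-96808640, plus strand) was measured at 60.0 to 75.1 CPM at 0 h, 73.4 to 80.9 CPM at 24 h and 77.7 to 92.1 CPM at 48 h. Every 48 h library lay above every 0 h library. The log2 fold change of 0.30 at 48 h against 0 h (95% confidence interval -0.01 to 0.61, edgeR adjusted p = 0.133) did not pass the test. In the other comparisons it was 0.17 and 0.13.

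Cbx3 (HP1 gamma, ENSMUSG00000029836, chr6:51470360-51483704, plus strand) was measured at 426, 305 and 200.5 CPM in 0 h replicates 1 to 3, at 244, 300.2 and 303 CPM at 24 h and at 299, 319 and 310.1 CPM at 48 h. The 0 h libraries spanned the range of all the others, by 2.12-fold, while the 48 h libraries lay within 1.07-fold of each other. The log2 fold change at 48 h against 0 h was -0.01, with a confidence interval of -0.61 to 0.59 (edgeR adjusted p = 0.987), and it was 0.14 at 48 h against 24 h (-0.07 to 0.34, adjusted p = 0.311). Cbx3 also shares sequence with many pseudogenes: 31.7% of its coding-transcript windows of 75 bases match 18 other genes at 97% identity or more. Of these genes, 15 are pseudogenes. Those present in the count files together held 300 to 798 counts a library, against at least 3983 for Cbx3. Summed with its pseudogenes Cbx3-ps6 and Cbx3-ps7, Cbx3 had a log2 fold change of 0.02 at 48 h against 0 h.

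The start regions of the 3 HP1 genes are shown because Cbx5 alone of these paralogs was called; the difference between the paralogs was not tested. The windows run from 250 bases before to 50 bases after the first RefSeq start listed for a gene on GRCm38.p6. The windows are given 5′ to 3′ on the strand of the gene, and capitals mark GGGCGG or its complement, the GC box bound by SP1-type factors. They lie at chr15:103239803-103240102 (minus strand, Cbx5), chr11:96788885-96789184 (plus strand, Cbx1) and chr6:51470366-51470665 (plus strand, Cbx3).
Cbx5: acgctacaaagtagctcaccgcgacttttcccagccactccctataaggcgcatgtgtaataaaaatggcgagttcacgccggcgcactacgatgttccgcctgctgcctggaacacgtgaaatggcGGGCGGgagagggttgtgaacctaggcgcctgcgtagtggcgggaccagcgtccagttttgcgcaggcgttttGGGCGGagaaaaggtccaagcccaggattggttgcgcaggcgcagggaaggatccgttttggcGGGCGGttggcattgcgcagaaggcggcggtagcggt
Cbx1: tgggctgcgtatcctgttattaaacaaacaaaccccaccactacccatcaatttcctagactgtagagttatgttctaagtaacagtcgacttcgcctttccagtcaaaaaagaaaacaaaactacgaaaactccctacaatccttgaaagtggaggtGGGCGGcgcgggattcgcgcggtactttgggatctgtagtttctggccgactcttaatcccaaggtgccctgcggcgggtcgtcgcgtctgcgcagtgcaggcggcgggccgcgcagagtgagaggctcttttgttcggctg
Cbx3: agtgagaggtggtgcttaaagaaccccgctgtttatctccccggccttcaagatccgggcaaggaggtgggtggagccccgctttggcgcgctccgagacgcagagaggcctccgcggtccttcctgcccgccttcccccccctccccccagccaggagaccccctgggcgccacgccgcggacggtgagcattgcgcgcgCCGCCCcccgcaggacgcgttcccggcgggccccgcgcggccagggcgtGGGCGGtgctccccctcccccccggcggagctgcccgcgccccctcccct
The Cbx5 window holds 3 copies of GGGCGG, Cbx3 holds 2 and Cbx1 holds 1, in windows of 60.3%, 75.3% and 52.7% GC. Cbx5 and Cbx3 each have a second RefSeq window, not shown, with 1 copy (54.7% GC) and 0 copies (71.7% GC). On either strand, GGGCGG was found in the first window of 7 of the 8 genes, all but Atrx, and in 35.7% of 32851 RefSeq windows of the same length. CCAAT was found in the first window of 4 of the 8 (Cbx5, Pogz, Atrx and Daxx) and in 37.4% of all windows. The further windows of Cbx5 and Daxx held no CCAAT. The 8 windows had 11 to 34 CpG dinucleotides and a median GC content of 61.5%, where all windows had medians of 7 and 52.7%. In the first windows, Cbx5 alone of the 8 held CACGTG (7.15% of all windows) and TTTGGCGG (0.56%), the latter overlapping one of its GC boxes. Cbx3 held TTTGGCGC (0.514%). The second windows of Cbx5 and Cbx3 held none of these motifs. The exact repeat AGGTCA, 5 bases, AGGTCA, 1 form of the direct repeat bound by retinoic acid receptors, was in none of the 8 windows. It was in only 3 of the 32851 (0.00913%), so its absence from the 8 says little. Variant half-sites and other spacers were not searched.

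Cbx3 and Cbx5 each lie head to head with an RNA-binding protein gene. The nearest RefSeq starts of Cbx3 and Hnrnpa2b1 are 722 bases apart, and the nearest of Cbx5 and Hnrnpa1 are 545 bases apart. Cbx3, Hnrnpa2b1 and Cbx5 each have a second RefSeq start. Hnrnpa1 had log2 fold changes of -0.26 at 24 h against 0 h, -0.13 at 48 h against 0 h and 0.13 at 48 h against 24 h, and did not pass the test (edgeR adjusted p = 0.315, 0.623 and 0.344). For Hnrnpa2b1 the values were 0.38, 0.28 and -0.09 (adjusted p = 0.13, 0.229 and 0.396). On the second day Cbx5 was thus called lower and its neighbour was not called, and the difference between them was not tested.

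Taken as parts of the summed HP1 level per length, Cbx5 had its lowest share at 48 h. Cbx5 made up 27.2%, 31.1% and 29.8% of the sum in 0 h replicates 1 to 3, 30.6%, 26.7% and 25.0% at 24 h, and 21.0%, 20.3% and 20.8% at 48 h. The 48 h shares lay below all 6 others, with means of 29.4 ± 2.01%, 27.4 ± 2.88% and 20.7 ± 0.341% (SD, n = 3). Cbx1 held 17.5 ± 3.34%, 20.3 ± 1.54% and 22.0 ± 1.27%, and Cbx3 53.1 ± 4.94%, 52.3 ± 4.03% and 57.2 ± 1.16%. The shares depend on the length used: with the longest transcript Cbx5 held 17.7%, 16.4% and 11.9%, with the coding length 39.3%, 37.2% and 29.1%, and in each case its 48 h mean was the lowest. The order of Cbx1 and Cbx5 depends on the length too. With the longest transcript Cbx1 held 18.5% at 0 h, above Cbx5 already, and with the coding length 15.15% at 48 h, below Cbx5 still. Between 3 and 3 libraries the exact two-sided permutation test can give no p below 0.1. The sum itself was 67.7 to 121 FPKM at 0 h, 85.5 to 92.6 FPKM at 24 h and 88.3 to 93.8 FPKM at 48 h.

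**Figure D3:**
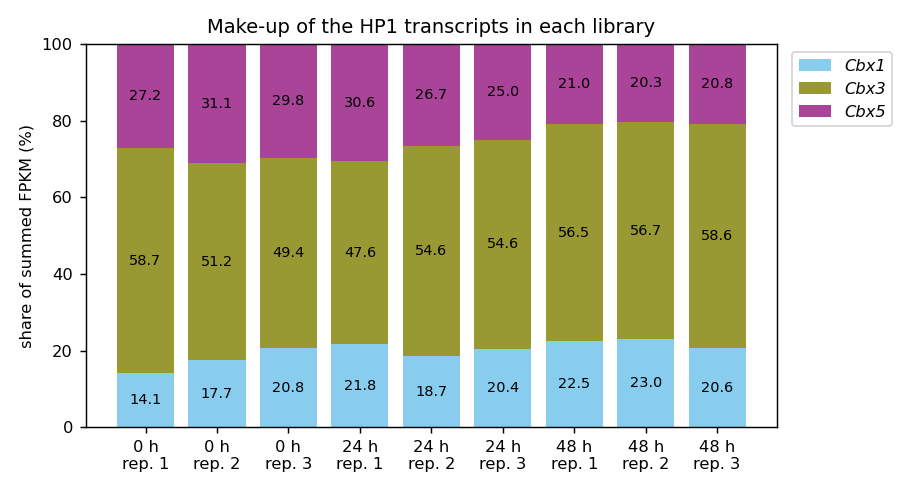
Share of Cbx1, Cbx3 and Cbx5 in the summed FPKM of the 3 HP1 genes (vertical axis, percent, with the values printed in the bars) in each of the 9 libraries. The top segment, Cbx5, is 20.3% to 21.0% in the 48 h libraries and 25.0% to 31.1% in the others.

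Pogz and Adnp, both zinc finger proteins that bind HP1, rose between 0 h and 48 h. Pogz (ENSMUSG00000038902, chr3:94837567-94882326, plus strand) was measured at 269, 268 and 232 CPM in 0 h replicates 1 to 3, at 308, 330.4 and 259 CPM at 24 h and at 351, 396 and 359 CPM at 48 h. The 48 h libraries lay above all the others, and the 24 h libraries overlapped with those of 0 h. The log2 fold change at 48 h against 0 h was 0.53 (SE 0.11, edgeR adjusted p = 0.00993, higher in all 3 libraries), and the call held in 15 of 15 alternative analyses. At 24 h against 0 h it was 0.22 (95% confidence interval -0.09 to 0.53, adjusted p = 0.274). The rise of 0.31 from 24 h to 48 h (SE 0.09, adjusted p = 0.0384) lay near the threshold: it was lost in 7 of 15 alternatives, with adjusted p from 0.0019 to 0.131, among them 5 of the 6 fits that left out 1 library (adjusted p 0.0541 to 0.0967, all but the one without 24 h replicate 2).

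Adnp (ENSMUSG00000051149, chr2:168180986-168207112, minus strand) was measured at 15.4, 13.2 and 13.3 CPM in 0 h replicates 1 to 3, at 16.0, 16.4 and 12.3 CPM at 24 h and at 19.6, 26.6 and 22.4 CPM at 48 h. Again the 48 h libraries lay above all the others. The log2 fold change was 0.71 at 48 h against 0 h (SE 0.15, edgeR adjusted p = 0.0111) and 0.62 at 48 h against 24 h (SE 0.13, adjusted p = 0.0117), and 0.09 at 24 h against 0 h (95% confidence interval -0.29 to 0.48, adjusted p = 0.736). The second-day rise held in 15 of 15 alternatives. That from 0 h to 48 h was lost in 1 of 15, without 48 h replicate 2, where it was 0.60 with an adjusted p of 0.0511. The fibroblast and myoid marker sums were higher at 48 h than at 24 h and at 0 h as well, in all libraries, and the part of somatic cells in these rises was not tested.

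The start regions of the 2 genes that rose, chr3:94837187-94837486 (plus strand, Pogz) and chr2:168207063-168207362 (minus strand, Adnp), are shown with the same capitals.
Pogz: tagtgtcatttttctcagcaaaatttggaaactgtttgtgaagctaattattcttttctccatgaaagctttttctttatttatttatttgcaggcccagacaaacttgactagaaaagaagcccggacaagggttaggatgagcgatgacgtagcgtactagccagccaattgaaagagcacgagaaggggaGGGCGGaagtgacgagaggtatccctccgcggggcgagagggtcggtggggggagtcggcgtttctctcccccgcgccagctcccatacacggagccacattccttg
Adnp: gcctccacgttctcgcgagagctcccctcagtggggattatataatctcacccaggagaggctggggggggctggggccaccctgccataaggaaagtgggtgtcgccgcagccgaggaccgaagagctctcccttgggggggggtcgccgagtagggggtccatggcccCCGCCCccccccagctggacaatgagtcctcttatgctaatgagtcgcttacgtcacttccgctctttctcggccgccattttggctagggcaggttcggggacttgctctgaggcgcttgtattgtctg
Each holds 1 copy of GGGCGG, in windows of 50.0% and 62.7% GC, and CCAAT is present in the Pogz window but not in that of Adnp. No other motif of those searched was found in either.

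Trim28 and Daxx were not called in any of the 3 comparisons with TMM scaling alone, and their fold changes moved with a correction for base composition. Trim28 (ENSMUSG00000005566, chr7:12999114-13031035, plus strand), the most abundant of the 8, was measured at 641 to 889.6 CPM at 0 h, 764 to 837 CPM at 24 h and 739 to 823 CPM at 48 h, and the 24 h and 48 h libraries lay inside the range of 0 h. Its log2 fold changes were 0.11, 0.07 and -0.03 (edgeR adjusted p = 0.639, 0.743 and 0.739), with confidence intervals of -0.22 to 0.43, -0.25 to 0.39 and -0.17 to 0.11. With offsets for GC content and length the change of the second day was 0.20 with an adjusted p of 0.0317, so its sign depends on that correction, and that of 48 h against 0 h was 0.33 (adjusted p = 0.0813). Daxx (ENSMUSG00000002307, chr17:33909414-33915590, plus strand), the chaperone of histone H3.3, was measured at 46.9 to 58.0 CPM at 0 h, 51.2 to 52.2 CPM at 24 h and 47.2 to 55.8 CPM at 48 h. The confidence intervals of its log2 fold changes were -0.29 to 0.23, -0.34 to 0.23 and -0.19 to 0.14. With the offsets its change at 48 h against 0 h was 0.22, in place of -0.05.

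Atrx (ENSMUSG00000031229, chrX:105797615-105929403, minus strand), the remodeller that works with DAXX, could not be resolved between time points, as the libraries within a group lay far apart. It was measured at 120.2, 16.7 and 23.0 CPM in 0 h replicates 1 to 3, at 22.0, 29.0 and 45.8 CPM at 24 h and at 78.8, 20.4 and 86.8 CPM at 48 h. The range was 7.22-fold within 0 h and 4.25-fold within 48 h. The ratio of Atrx to Daxx per length ran from 0.0452 to 0.371 within 0 h alone. Its log2 fold changes were -0.74, 0.21 and 0.95 (edgeR adjusted p = 0.522, 0.875 and 0.17), and the interval at 48 h against 0 h, -1.73 to 2.15, allows changes of several fold either way. Single libraries decided the values: without 0 h replicate 1 the change at 24 h against 0 h was 0.72 (adjusted p = 0.122), and without 48 h replicate 2 the change at 48 h against 24 h was 1.38 and passed the test (adjusted p = 0.00227).

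The deviations of Atrx were set beside those of other long transcripts of low GC content. The longest transcript of Atrx has 10275 bases and 39.5% GC. Its deviation from the 9-library mean of log2 CPM was 1.64, -1.21 and -0.75 at 0 h, -0.81, -0.41 and 0.25 at 24 h, and 1.03, -0.91 and 1.17 at 48 h. The median deviation of the 150 long transcripts of low GC content was 0.50, -0.17 and -0.72, then -0.21, -0.05 and -0.05, then 0.36, -0.01 and 0.42, and had the same sign in 8 of the 9 libraries. The medians were close to 0 in several of these, and the low values of Atrx in 0 h replicate 2 and 48 h replicate 2 had no drop of like size in the median. Between 0 h replicates 1 and 3 the ratio of CPM was 5.24 for Atrx, 2.12 for Cbx3 (38.7% GC), 1.63 for Cbx5 (42.6%), 1.21 for Cbx1 (44.8%), 1.15 for Adnp (48.1%), 1.16 for Pogz (49.5%), 0.809 for Daxx (56.3%) and 0.781 for Trim28 (59.6%). The 4 genes of lowest GC content had the 4 highest ratios, and the 2 of highest GC content the only ratios below 1. These ratios are of 8 genes in 1 pair of libraries. The part of base composition in the library differences was not tested. With offsets for GC content and length, the log2 fold change of Atrx at 48 h against 0 h was -0.03 (edgeR adjusted p = 0.971). In 48 h replicate 2, Atrx was at 0.247 of the mean of the other 48 h libraries, while the other 7 genes were at 1.03 to 1.26.

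**Figure D4:**
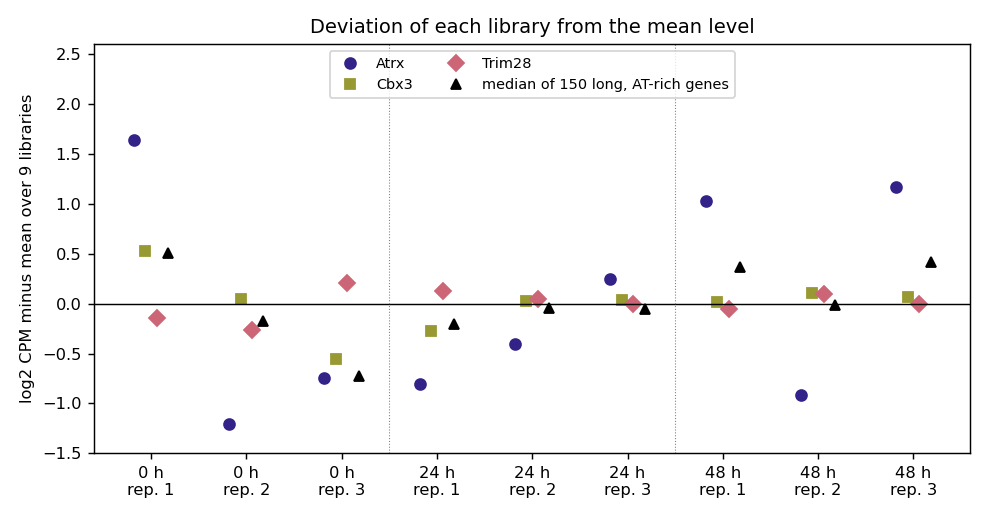
Deviation of log2 CPM from the mean over the 9 libraries (vertical axis, log2) for Atrx, Cbx3 and Trim28 and for the median of 150 long transcripts of low GC content, in each library (horizontal axis). Atrx and the median lie above 0 in 0 h replicate 1 and in 48 h replicates 1 and 3, and Trim28 runs against Cbx3 in 0 h replicates 1, 2 and 3.

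The genes most like each member over the 9 libraries were taken from 9842 protein-coding genes with a mean of at least 10 CPM. Likeness over the 9 libraries does not separate time from differences between libraries. By Pearson's r of log2 CPM, given as a description, Rif1 (r = 0.996) and Ranbp2 (0.989) were nearest to Atrx, and Spc25 (0.981) and Efcab7 (0.975) to Cbx3. For Cbx5 the nearest were Enpp5 (0.985) and Ate1 (0.982), and for Cbx1 Crebzf (0.99) and Ankrd13c (0.973). Pogz was nearest to Nr6a1 (0.977), the germ cell nuclear factor gene, and Sertad2 (0.975), and Adnp to Zbtb40 (0.967) and Plekhh1 (0.963). Nploc4 (0.952) and Lrrc59 (0.912) followed Trim28, and Ube2t (0.974) and G6pc3 (0.946) followed Daxx. All points share depth, base composition and somatic content within a library.

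Among the enzymes that write the mark bound by HP1, the G9a and GLP genes rose, while Suv39h1, Suv39h2 and Setdb1 did not pass the test. Of 8 methyltransferases of H3K9 and H4K20, 2 were called higher and 0 lower at 24 h against 0 h, 2 and 0 at 48 h against 0 h, and 1 and 1 at 48 h against 24 h. With 1 library left out at a time the calls numbered 1 to 4, 2 to 4 and 1 to 3, the most being without 0 h replicate 1 in the comparisons with 0 h and without 48 h replicate 2 on the second day. Among all genes tested, 11.4%, 13.0% and 8.61% were called higher in the 3 comparisons and 14.2%, 18.5% and 12.7% lower. These shares are the background of the list counts below as well. Ehmt2 (G9a) rose by 1.34 and 1.52 on the log2 scale at 24 h and 48 h against 0 h (edgeR adjusted p = 0.00187 and 0.000891), and Ehmt1 (GLP) by 0.46 at 48 h (adjusted p = 0.00742). Kmt5c, which methylates H4K20 at sites bound by HP1, rose by 0.54 on the first day (adjusted p = 0.0455) and changed by -0.39 on the second (adjusted p = 0.0231), when Kmt5b rose by 0.32 (adjusted p = 0.00656). Suv39h1, Suv39h2 and Setdb1 had log2 fold changes between -0.06 and 0.13 in the 3 comparisons and were not called.

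Of 13 corepressor partners of TRIM28 and ADNP, 0 were called higher and 3 lower at 24 h against 0 h, 1 and 3 at 48 h against 0 h, and 2 and 3 at 48 h against 24 h. Leaving out 1 library gave 3 to 5, 3 to 6 and 1 to 4 calls, with 1 call on the second day without 24 h replicate 3 or without 48 h replicate 1. Chd4, the remodeller that ADNP joins to HP1, fell by 0.67 and 0.86 on the log2 scale against 0 h (edgeR adjusted p = 0.00458 and 0.00102), from 1316 to 826 and 720.4 CPM, while Adnp rose at 48 h. Pphln1, of the HUSH silencing complex, fell by 1.06 and 1.32 (adjusted p = 0.0033 and 0.00104), and Zfp57, a KRAB zinc finger protein that brings TRIM28 to imprinted loci, by 0.89 and 1.20 (adjusted p = 0.00292 and 0.000491). Atf7ip, the partner of SETDB1, rose by 0.37 at 48 h against 0 h (adjusted p = 0.0293). Chd3 had the largest second-day fall of the list, by 0.57 (adjusted p = 0.000834).

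Of 12 partners that bind HP1 or act at mitotic centromeres, 1 was called higher and 0 lower at 24 h against 0 h, 1 and 1 at 48 h against 0 h, and 1 and 1 at 48 h against 24 h, with 1 to 2, 1 to 2 and 0 to 6 calls when 1 library was left out (6 without 48 h replicate 2). Mad2l2, a HORMA domain protein of DNA repair and mitosis, rose by 1.21 and 0.84 against 0 h (edgeR adjusted p = 0.000655 and 0.00423) and fell by 0.37 on the second day (adjusted p = 0.0136). Lbr, the lamin B receptor that ties HP1 to the nuclear envelope, fell by 0.40 at 48 h against 0 h (adjusted p = 0.0223). Sgo1, the protector of sister centromeres, rose by 0.31 on the second day (adjusted p = 0.0442). Chaf1a, the chromatin assembly subunit that carries HP1 to replicating chromatin, had log2 fold changes of 0.04, 0.03 and 0.00 and was not called.

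Of 9 genes of histone H3.3 and its other chaperones, 1 was called higher and 2 lower at 24 h against 0 h, 1 and 4 at 48 h against 0 h, and 0 and 3 at 48 h against 24 h. These calls numbered 0 to 3, 1 to 5 and 0 to 5 with 1 library left out. At 24 h 0 calls were left when 0 h replicate 2, 24 h replicate 1 or 24 h replicate 2 was dropped, and dropping 48 h replicate 2 gave 5 on the second day. H3f3b fell by 0.44, 0.67 and 0.22 on the log2 scale in the 3 comparisons (edgeR adjusted p = 0.0164, 0.00278 and 0.0493), whereas H3f3a, which encodes the same protein, had values of 0.42, 0.38 and -0.04 and was not called. Hira, the chaperone that places H3.3 at genes, fell by 0.49 at 48 h against 0 h and by 0.32 against 24 h (adjusted p = 0.0291 and 0.0432), and Ubn1, of the same complex, rose by 0.41 and 0.33 against 0 h (adjusted p = 0.0149 and 0.0265).

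Of 7 factors of DNA methylation at heterochromatin, 0 were called higher and 1, 2 and 3 lower in the 3 comparisons, and leaving out 1 library gave 1 call, 2 to 3 and 1 to 5 calls. Uhrf1, which leads the methyltransferase DNMT1 to replicated DNA, fell by 0.79, 1.19 and 0.39 on the log2 scale (edgeR adjusted p = 0.00232, 0.000502 and 0.00741). Dnmt1 had values of 0.10, -0.08 and -0.18 and was not called.

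In order of the 3 comparisons, the median log2 fold change was 0.25, 0.31 and 0.10 for the methyltransferases and 0.02, 0.11 and 0.00 for the corepressor partners. It was -0.17, 0.07 and 0.10 for the genes that bind HP1 or act at mitotic centromeres, and -0.16, 0.14 and -0.06 for those of histone H3.3 and its chaperones. The DNA methylation factors had medians of 0.04, -0.08 and -0.18. All genes tested had medians of 0.01, 0.02 and -0.00, and 25.5%, 31.6% and 21.3% of them were called.

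**Figure D5:**
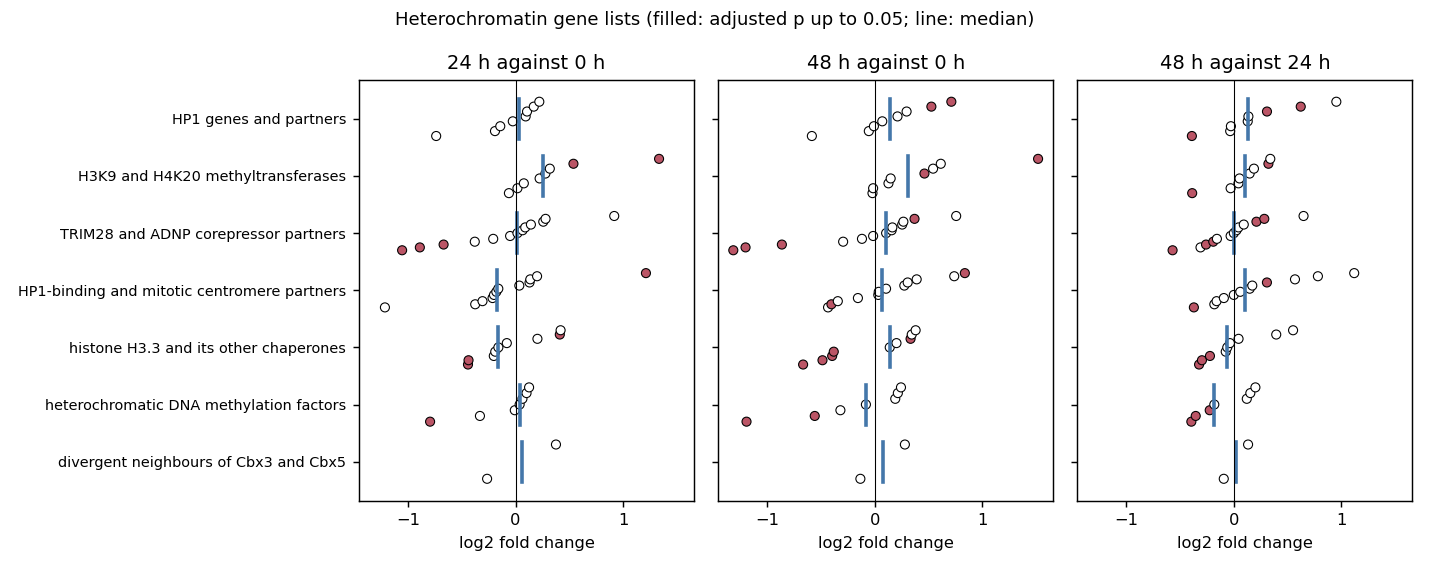
Log2 fold changes (horizontal axes) of the 8 genes and of 6 lists of related genes (rows) in the 3 comparisons (panels); each point is a gene, filled where the adjusted p is up to 0.05, and the vertical line is the median of the list. The medians of the 8 genes are 0.03, 0.14 and 0.13, and Ehmt2 at 1.34 and 1.52 is the point farthest to the right in the panels against 0 h.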

How the data were processed

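Poly-A RNA of EGFP-SSCs was sequenced in 3 biological replicates each at 0 h, 24 h and 48 h, and the authors deposited raw read counts per gene, made per the labels with fastp, HISAT2 and featureCounts on GRCm38 (versions, strand setting and annotation release not given in the sources used here). Of 46078 gene identifiers, 45229 were found in GENCODE M21, which gave symbols, positions, lengths and GC content; the other 849 held at most 0.121% of the counts of a library. The 8 genes and the related lists were chosen with earlier results of these data known, and 1 list is not reported here.

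CPM and FPKM were computed here from the deposited counts with TMM factors (edgeR 4.0.16, R 4.3.3), FPKM over the union of exons. Each pair of time points was tested across all genes by edgeR's quasi-likelihood test on its 6 libraries (filterByExpr, Benjamini-Hochberg adjustment, threshold 0.05, two-sided), with t-based 95% confidence intervals. The scripts were tested on simulated data. Alternatives were DESeq2 1.42.0, other scalings and filters, all 9 libraries in 1 fit, a replicate block, offsets for GC content and length, a 1.3-fold minimum and leaving out each library. Summing Cbx3 with its pseudogenes and the free Adnp length were added after seeing the data. Same-numbered libraries did not deviate together (r from -0.281 to 0.194), so the numbers were not used as pairs. Replicates of a group differed by more than counting noise in every pair (chi-square per degree of freedom 7.12 to 81.4). P-values measure the spread between the libraries of 1 cell line. Sequence sharing was searched with BLAST 2.17.0. The text names the 8 genes, 15 genes fixed from the lists, the called gene with the largest rise and fall in each list, the 2 genes most like each of the 8, cell type markers and overlapping genes; Kmt5b, Kmt5c, Atf7ip, Ubn1, Chd3 and the other list genes named fall under these rules. RefSeq start regions and positions came from the reference tables on GRCm38.p6.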

Additional observations from a re-analysis of the deposited data

How the results depend on the processing

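Of 363 log2 fold changes of the 8 genes under alternative settings, 312 kept their direction and their side of the threshold, 9 lost a call, 9 gained one in the same direction and 33 turned sign, of which Trim28 at 48 h against 24 h with GC and length offsets also passed the test (adjusted p = 0.0317). Fitting all 9 libraries together left 1 of the 8 genes called at 48 h against 24 h, and 1043 genes of the whole table. With 1 library left out, 0 to 1, 1 to 3 and 2 to 3 of the 8 genes were called at 24 h against 0 h, 48 h against 0 h and 48 h against 24 h, and 2607 to 6023, 3471 to 7116 and 1857 to 4356 genes of the table. The replicate block, a number shared by libraries with no pairing behind it, gave 0, 2 and 3 of the 8 genes and 3007, 4013 and 2497 of the table. Daxx at 24 h against 0 h was 0.088 with library size alone, 0.021 with at least 10 counts in every library, 0.058 with GC and length offsets and 0.059 with these and the replicate block. Cbx3 at 48 h against 0 h was 0.0050 with DESeq2, 0.0066 with its size factors, 0.10 with library size alone, 0.010 with at least 10 counts, 0.065 with the replicate block and 0.021 with its pseudogenes. Daxx at 48 h against 0 h was 0.056 with library size alone and 0.22 with the offsets, with or without the block. With the offsets Atrx at 48 h against 0 h was -0.033, and at 48 h against 24 h Cbx3 was -0.089 (-0.10 with the block), Trim28 0.20 (0.19) and Daxx 0.16 (0.16). Leaving out 1 library turned signs within these ranges: Atrx -1.15 to 0.72 at 24 h and -0.20 to 1.66 at 48 h against 0 h, Cbx3 -0.36 to 0.17 and -0.22 to 0.30, Daxx -0.092 to 0.065 and -0.12 to 0.038, and -0.086 to 0.031 on the second day, Trim28 -0.025 to 0.24 at 48 h against 0 h and -0.061 to 0.010 on the second day. The causes were not tested.

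Without a filter on low counts Atrx at 48 h against 24 h had an adjusted p of 1.83e-19 (log2 fold change 0.94). In that fit the prior degrees of freedom were infinite, against 5.43 with the filter, so every gene was given the trended spread and not its own. Against 0 h the values were 12.1 and 9.81 without the filter and 3.43 and 3.25 with it. Adnp (250 to 602 counts a library) and Atrx (337 to 1956) had the lowest minimum counts of the 8 genes. Atrx lay above Daxx (763 to 1264) in 0 h replicate 1 and in 48 h replicates 1 and 3. Counts of called genes, over all lists tested, stayed within 1.5 times of the main count in 235 of 336 alternatives, and HP1 shares within their SD in 32 of 45.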
